A study of Mus musculus with 24 samples.

Results

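Zfp36, Zfp36l1, Zfp36l2, Elavl1, Khsrp and Zc3h12a encode RNA-binding proteins that set how long an mRNA lasts. They were taken from the deposited table by gene symbol, and all 6 were found among its 23235 rows. The samples were T11 cells, which are a claudin-low line from a mouse mammary tumour and, in every group, carry a luciferase gene. Groups received FPP-1746-Omomyc, FPP-1746, Omomyc or PBS for 3 h or 6 h, the 3 peptides each at 5 µM. Each of the 8 groups had 3 biological replicates. Omomyc, a mutant of the MYC dimerisation domain, takes the place of MYC in pairing with MAX and in binding DNA. Cell-penetrating peptide FPP-1746 carries cargo into cells, and FPP-1746-Omomyc is the fusion of both. The 3 samples titled as the fusion at 6 h carry a treatment tag that says 3 h, and the titles and the column name were followed.

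The table holds 1 averaged FPKM column per group, so the replicates behind it cannot be compared. No test was made, and no difference below has a replicate check. FPKM is a fragment number scaled by transcript length and library size, so it allows a rough comparison between genes. Comparison between columns also depends on the library scaling, which is not given in the sources used here. Ratios are log2 of (FPKM + 1), and a gene was called higher or lower at 2-fold or more, that is at a log2 ratio of 1 in size. Of the table's rows, 10262 had a mean of at least 1 FPKM and are called the tested genes, and all 6 genes passed that filter. Column sums lay between 445657 and 594951 FPKM. From the step between low values, the 6 genes rested on roughly 800 to 43000 fragments per column, which puts the counting error of their lowest value at 3.5% or less. These fragment numbers are rough, because the step was read from at most 54 genes in a column. Mesenchymal markers were present, with Vim, the intermediate filament vimentin, at 3300 FPKM or more. All 8 epithelial markers summed to at most 0.185 FPKM in any column.

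ZFP36 (also called tristetraprolin) and its paralogs ZFP36L1 and ZFP36L2 bind AU-rich elements in the 3′ untranslated region (3′ UTR) of short-lived mRNAs and recruit the enzymes that remove the poly(A) tail. KHSRP also promotes decay of AU-rich mRNAs, whereas ELAVL1 (HuR) binds such elements and mostly stabilises the mRNA. ZC3H12A (Regnase-1) is an endonuclease that cuts stem-loops in mRNAs of cytokines and related genes. Zfp36 and Zfp36l1 are known as genes that growth factors and stress induce quickly, and the proteins are known to act on their own mRNAs.

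Zfp36 and Zfp36l1 were far higher with the fusion at 3 h and were still higher at 6 h. Zfp36l2, the most abundant of the family, was higher with the fusion at 6 h, where the columns without fusion had dropped. Elavl1 and Khsrp were nearly flat in all 8 columns, and Zc3h12a had its highest value with the fusion at 3 h. No member was called for Omomyc or FPP-1746 alone against PBS at either time.

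**Figure D1:**
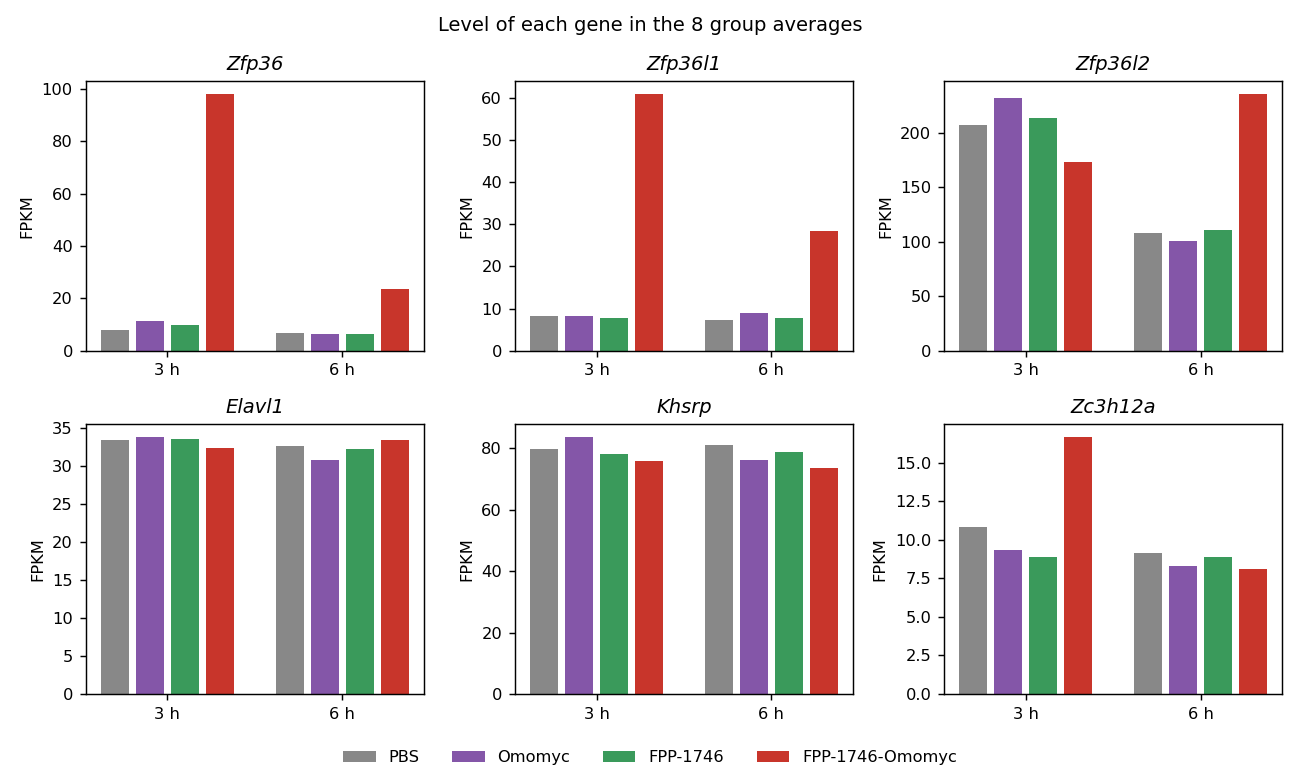
Deposited FPKM (y axis, linear, each panel with its own scale from 0) of the 6 genes in the 8 group averages, with bars coloured by treatment and grouped by time. Each bar is 1 average and has no error bar. Zfp36 reached 98.1 FPKM and Zfp36l1 60.9 FPKM with the fusion at 3 h, while Elavl1 stayed between 30.8 and 33.8 FPKM in all columns.

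Zfp36 lies on chromosome 7 from 29161803 to 29164247 in the table's mm9 coordinates. At 3 h its FPKM was 7.96 under PBS, 11.2 under Omomyc, 9.90 under FPP-1746 and 98.1 under the fusion. At 6 h it stood at 6.77, 6.31, 6.36 and 23.6 FPKM in the same order. Both fusion columns were above all 6 others, which spanned 6.31 to 11.2 FPKM. Against PBS the log2 ratio was 3.47 at 3 h, an 11.1-fold difference, and 45 of the 10262 tested genes had a higher ratio. At 6 h it was 1.66, a 3.17-fold difference. The RNA was taken from whole cultures, in which more cells with the mRNA and more mRNA per cell cannot be told apart. Within the fusion-treated cells the level was 4.03-fold lower at 6 h than at 3 h (log2 ratio -2.01), and under PBS it was 1.15-fold lower. Against FPP-1746 the fusion ratios were 3.18 and 1.74, and against Omomyc 3.02 and 1.75, at 3 h and 6 h.

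Zfp36l1, on chromosome 12 from 81208747 to 81214000, had a smaller ratio at 3 h and a more lasting one. Its FPKM at 3 h was 8.20 under PBS, 8.29 under Omomyc, 7.77 under FPP-1746 and 60.9 under the fusion. At 6 h they were 7.22, 9.0, 7.84 and 28.4 FPKM. The fusion columns were again above all others, whose range was narrow, 7.22 to 9.0 FPKM. The log2 ratio to PBS was 2.75 at 3 h and 1.84 at 6 h, and within the fusion-treated cells the level was 2.11-fold lower at 6 h than at 3 h. That decline fell short of 2-fold with a pseudocount of 5 FPKM (-0.98) and after quantile normalisation (-0.93). At 3 h the ratio of Zfp36 to PBS was the larger of the pair, and at 6 h that of Zfp36l1 was. The order at 6 h held against PBS only. Against FPP-1746 the 6 h ratio was 1.73 for Zfp36l1 and 1.74 for Zfp36, and against Omomyc 1.55 and 1.75.

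The 2 genes above are those called at 3 h, so the bases before their annotated starts are shown. RefSeq promoter windows of 300 bases, 250 before and 50 after the start, were found for 5 of the 6 genes, in build GRCm38.p6. The last 120 bases before the start are printed here, 5′ to 3′ on the gene's strand (minus for both), with motif matches in capitals. The Zfp36 stretch is chr7:28379229-28379348 and the Zfp36l1 stretch is chr12:80113014-80113133.
Zfp36: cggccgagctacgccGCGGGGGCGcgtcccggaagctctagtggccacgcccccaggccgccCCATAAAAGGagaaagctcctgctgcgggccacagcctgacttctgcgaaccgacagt
Zfp36l1: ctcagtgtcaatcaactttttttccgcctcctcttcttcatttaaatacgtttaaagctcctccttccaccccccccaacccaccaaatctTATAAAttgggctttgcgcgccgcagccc

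Both strands of each window were searched for 7 motifs. In Zfp36 the capitals mark an EGR-type motif (GCGNGGGCG), 105 to 97 bases before the start, and a CArG box, the motif of serum response factor, 58 to 49 bases before it. The 2 motifs do not overlap. Of 32851 RefSeq promoter windows, 5.55% held the EGR-type motif and 1.63% a CArG box. In Zfp36l1 the capitals mark TATAAA, 29 to 24 bases before the start, which 13.6% of windows held. Further upstream, outside the printed stretch, Zfp36l1 held an AP-1 motif (TGANTCA), 129 to 123 bases before the start, which 7.81% of windows held. No window of the 5 genes held CACGTG, the E-box letters bound by MYC and MAX (7.15% of all windows), the CRE letters TGACGTCA (1.79%) or an NF-kB site (8.46%). The windows of Elavl1, Khsrp and Zc3h12a held none of the 7. A match says only that the letters are there.

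Zfp36l2, on chromosome 17 from 84583269 to 84587287, behaved unlike its paralogs. At 3 h its FPKM was 207 under PBS, 232 under Omomyc, 214 under FPP-1746 and 174 under the fusion, where the fusion column was the lowest of the 4. At 6 h it was at 108, 101, 111 and 236 FPKM, and the fusion column was by far the highest. The log2 ratio to PBS was -0.25 at 3 h, which did not pass the rule, and 1.12 at 6 h, which did. The larger part of the shift came from the references. Between 3 h and 6 h the level dropped 1.91-fold in PBS, 2.29-fold with Omomyc and 1.92-fold with FPP-1746, whereas with the fusion the log2 ratio of 6 h to 3 h was 0.44. Among all tested genes, 0.487% were at least 2-fold lower at 6 h under PBS, 0.789% under Omomyc and 0.77% under FPP-1746, and of the 6 genes Zfp36l2 alone passed, under Omomyc. In PBS, 30 of 10121 tested genes outside records of small RNAs had a lower ratio of 6 h to 3 h than Zfp36l2, and the numbers were 35 with Omomyc and 53 with FPP-1746. Against the mean of both PBS columns the fusion ratios of Zfp36l2 were 0.14 at 3 h and 0.58 at 6 h, so the call at 6 h depends on the PBS column of that time.

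Counted over the 6 genes, the fusion was at least 2-fold above PBS for 2 at 3 h and 3 at 6 h, and below it for none. Among all tested genes 6.13% were higher at 3 h and 7.13% at 6 h, while 4.42% and 3.34% were lower. Zfp36 and Zfp36l1 were called at both times, as were 3.39% of tested genes. The same genes were called against FPP-1746, where 5.86% of tested genes were higher at 3 h and 6.94% at 6 h. They were also those called against Omomyc, where the shares were 5.56% and 6.59%. Between 6 h and 3 h of the fusion, Zfp36 and Zfp36l1 were lower, 2 of 6, against 4.92% of tested genes. The comparisons share the fusion columns and are thus not independent of each other. The genes with both fusion columns outside the range of the 6 others were Zfp36, Zfp36l1 and, on the low side, Khsrp, 3 of 6, which is close to the 42.6% among all tested genes.

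**Figure D2:**
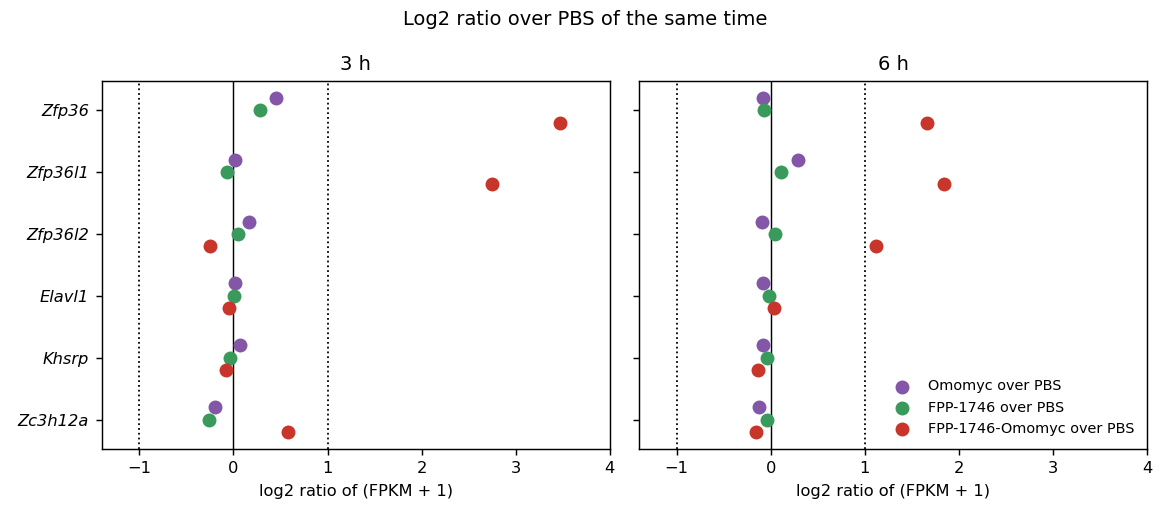
Log2 ratio of (FPKM + 1) over PBS of the same time (x axis) for each gene (y axis), with Omomyc in purple, FPP-1746 in green and the fusion in red; solid line at 0, dotted lines at 2-fold. At 3 h the fusion points of Zfp36 (3.47) and Zfp36l1 (2.75) lie past the dotted line, at 6 h those of Zfp36l2 (1.12), Zfp36 (1.66) and Zfp36l1 (1.84).

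With each part alone the ratios to PBS lay between -0.26 and 0.45 for all 6 genes. Among all tested genes 0.614% were called for FPP-1746 and 0.614% for Omomyc at 3 h, and 0.555% and 0.682% at 6 h. The largest of these values was Zfp36 with Omomyc at 3 h, 0.45, where 74 of 10262 tested genes had a higher ratio. With FPP-1746 at 3 h Zfp36 was at 0.28, where 221 genes had a higher ratio. At 6 h the Zfp36 ratio was -0.09 with Omomyc and -0.08 with FPP-1746. Zfp36l1 with Omomyc at 6 h was at 0.28, with 208 genes above it. The lowest value was that of Zc3h12a with FPP-1746 at 3 h, -0.26, where 183 genes had a lower ratio. Both parts are compared with the same PBS column, and none of these values passed the rule.

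The makeup of the family changed with the fusion. Summed over Zfp36, Zfp36l1 and Zfp36l2, the level at 3 h was 223 FPKM under PBS and 333 FPKM under the fusion. At 6 h it was 122 and 288 FPKM. In the 3 columns without fusion at 3 h Zfp36l2 made up 92.2% to 92.8% of the sum, and with the fusion 52.2%. Zfp36 went from 3.56% of the sum in PBS to 29.5% with the fusion, and Zfp36l1 from 3.67% to 18.3%. At 6 h Zfp36l2 made up 88.5% in PBS and 81.9% with the fusion. The added level at 3 h was thus Zfp36 and Zfp36l1, and at 6 h it was mostly Zfp36l2. These are shares of mRNA level, and protein was not measured.

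**Figure D3:**
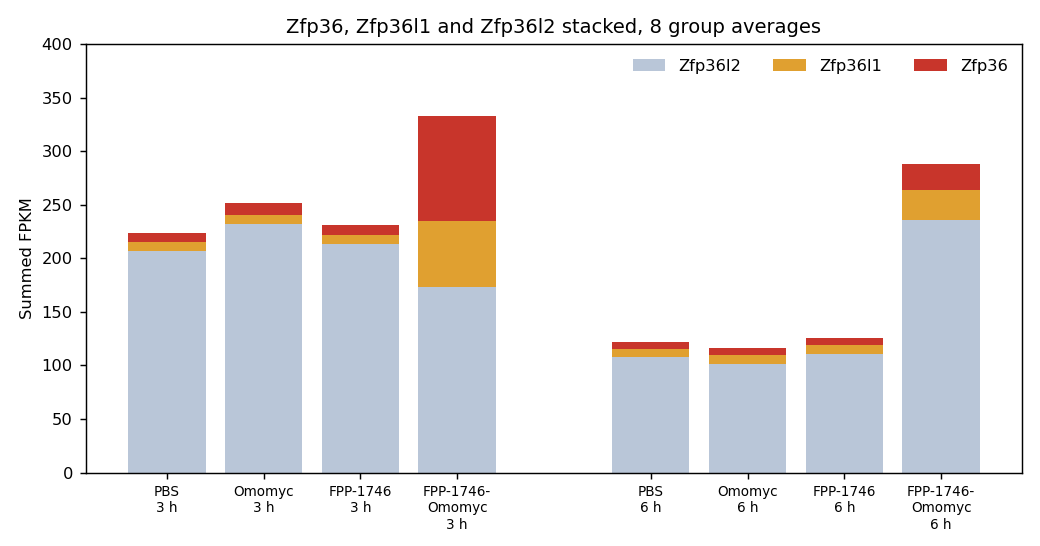
Summed FPKM (y axis) of Zfp36l2 (blue-grey), Zfp36l1 (orange) and Zfp36 (red), stacked for each of the 8 group averages (x axis, treatment and time). The sum was highest with the fusion at 3 h, 333 FPKM, where Zfp36l2 made up 52.2%, and at 6 h the fusion column stood at 288 FPKM against 122 FPKM in PBS.

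Zc3h12a, on chromosome 4 from 124795658 to 124805125, had its highest value with the fusion at 3 h. Its FPKM at 3 h was 10.8 under PBS, 9.30 under Omomyc, 8.86 under FPP-1746 and 16.7 under the fusion. At 6 h they were 9.14, 8.29, 8.88 and 8.12 FPKM, so the fusion column was the lowest of that time. The log2 ratio to PBS was 0.58 at 3 h and -0.15 at 6 h, and neither passed the rule. Against FPP-1746 and against Omomyc the 3 h ratios were 0.84 and 0.78, which pass a 1.5-fold rule but not the 2-fold rule. Within the fusion-treated cells the ratio of 6 h to 3 h was -0.95, which was past 2-fold with a pseudocount of 0.1 FPKM (-1.03) and after quantile normalisation (-1.03).

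Elavl1, on chromosome 8 from 4284782 to 4325100, varied least. At 3 h its FPKM was 33.4 under PBS, 33.8 under Omomyc, 33.5 under FPP-1746 and 32.3 under the fusion. At 6 h the values were 32.6, 30.8, 32.2 and 33.5 FPKM. Khsrp, on chromosome 17 from 57160472 to 57170930, was at 79.9, 83.7, 78.1 and 75.9 FPKM at 3 h. At 6 h it was at 81.1, 76.4, 78.9 and 73.6 FPKM, with the fusion lowest at both times. The ratios to PBS were -0.05 and 0.04 for Elavl1 and -0.07 and -0.14 for Khsrp. The 6 columns without fusion differed among themselves by up to 1.10-fold for each of these genes, so the fusion differences were of the size of the differences between columns that lack it. The table gives no other row whose locus overlaps any of the 6 genes.

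In PBS at 3 h the order of levels was Zfp36l2, Khsrp, Elavl1, Zc3h12a, Zfp36l1 and Zfp36. The last 3 are neighbours whose ranges over the columns without fusion overlap, 8.29 to 10.8, 7.22 to 9.0 and 6.31 to 11.2 FPKM. With the fusion at 3 h the order was Zfp36l2, Zfp36, Khsrp, Zfp36l1, Elavl1 and Zc3h12a. At 6 h with the fusion it was Zfp36l2, Khsrp, Elavl1, Zfp36l1, Zfp36 and Zc3h12a.

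The genes with the most similar profiles were found by the root mean square difference of log2 (FPKM + 1), centred per gene, over the 8 columns, among 9321 other named genes. For Zfp36 these were the immediate-early transcription factor gene Egr2 (0.12), Vasn (0.19), the polo-like kinase gene Plk3 (0.20) and the kinase gene Pim1 (0.20). The FPKM of Egr2 was 0.709 under PBS and 15.1 under the fusion at 3 h, and 0.162 and 3.0 at 6 h. For Zfp36l1 they were Herpud1 (0.14), a gene of endoplasmic reticulum stress, Fam46c (0.15), Abtb2 (0.15) and the choline kinase gene Chka (0.17). Herpud1 had 25.2 FPKM under PBS against 173 under the fusion at 3 h, and 25.6 against 83.3 at 6 h. Under PBS, Egr2 and also Fam46c (0.266 and 0.229 FPKM) lay below 1 FPKM at both times. The nearness of these genes thus depends on the pseudocount of 1 FPKM, and no other pseudocount was tried for profiles. The difference between Zfp36 and Zfp36l1 themselves was 0.36. For Zfp36l2 they were Zfp800 (0.10), Tsc22d1 (0.12), Stbd1 (0.13) and Dmtf1 (0.13), a transcription factor gene. Tsc22d1 showed the same drop without fusion, from 383 to 215 FPKM under PBS, and had 413 and then 513 FPKM under the fusion. For Zc3h12a they were Isoc2a (0.06), the glutathione transferase gene Gstp1 (0.07), Trappc6a (0.07) and Iah1 (0.07).

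The 3′ UTRs were searched for TATTTAT, the core heptamer of the AU-rich sites that ZFP36 proteins bind, in 1 GENCODE M21 transcript per gene (GRCm38). Zfp36 had 3 heptamers in a 3′ UTR of 774 bases, Zfp36l1 had 3 in 1835 bases, Zfp36l2 had 3 in 1822 bases and Elavl1 had 8 in 4218 bases. Khsrp and Zc3h12a had none, in 1642 and 856 bases. Among 8881 tested genes with a 3′ UTR, 28.8% had at least 1 heptamer and 3.48% had 3 or more. For each family gene a window with 1 of its 3 heptamers is printed, because the proteins are known to act on family mRNAs. That of Elavl1 is printed because its heptamers overlap. In each gene the window with the most heptamers was taken, and the first on ties. Each window has 27 bases, in DNA letters on the gene's strand, 5′ to 3′, with heptamers in capitals. They are chr7:28376967-28376993, chr12:80108423-80108449, chr17:84184915-84184941 and chr8:4285785-4285811 in the order below, all on the minus strand.
Zfp36: gtgggcccttTATTTATgacgacttta
Zfp36l1: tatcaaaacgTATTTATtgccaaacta
Zfp36l2: ctatttaactTATTTATtatcttgtga
Elavl1: gaaaatTATTTATTTATTTATTTATtt
The Elavl1 window holds 4 overlapping heptamers. The genes called with the fusion at either time, Zfp36, Zfp36l1 and Zfp36l2, each held 3, and so the heptamer count did not separate the early pair from Zfp36l2.

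Counts for the other lists of the decay machinery are read against all tested genes, of which 6.13% were higher and 4.42% lower at 3 h, and 7.13% higher and 3.34% lower at 6 h. Among 26 tested genes of AU-rich and decay-element binding proteins, 1 was higher and 1 lower at 3 h, with a median log2 ratio of -0.12 against 0.003 over all tested genes. Rc3h1, which encodes Roquin-1, a stem-loop binding protein, had 3.80 FPKM under PBS against 13.3 under the fusion at 3 h (log2 ratio 1.58) and 2.96 against 7.14 at 6 h (1.04). The 6 h call of Rc3h1 was lost with a pseudocount of 5 FPKM (0.61), after quantile normalisation (0.96) and against the mean of both PBS columns (0.90). Fubp1, a paralog of Khsrp, had 38.5 FPKM under PBS against 15.4 under the fusion at 3 h (-1.27). At 6 h 1 gene was higher and 3 were lower. Hnrnpd, which encodes the AU-rich binding protein AUF1, had 48.9 FPKM against 19.8 (-1.26), and its paralog Hnrnpdl, listed as Hnrpdl, 76.7 against 34.2 (-1.14). Fubp1 was lower again at 6 h, with 34.9 FPKM against 16.8 (-1.01), a call lost with a pseudocount of 5 FPKM (-0.87).

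The list around poly(A) removal had 19 tested genes and also holds the poly(A)-binding protein genes Pabpc1 and Pabpc4 and their regulator Paip2. Of the 19, 2 were higher at 3 h and 1 at 6 h, and none was lower. These were Tob1 and Tob2, whose proteins link the CCR4-NOT deadenylase to its targets. Tob1 had 10.6 FPKM under PBS against 64.4 under the fusion at 3 h (2.49) and 12.5 against 31.2 at 6 h (1.25). Tob2 had 20.2 FPKM against 71.8 at 3 h (1.78). No subunit of CCR4-NOT itself passed the rule at either time, but Cnot6, a catalytic subunit, was just short of it at 3 h. It had 41.3 FPKM under PBS against 20.3 under the fusion (-0.99), and was past 2-fold with a pseudocount of 0.1 FPKM (-1.02) and after quantile normalisation (-1.02). Pabpc4 was just short of the rule at 6 h, with 39.3 FPKM under PBS against 19.7 under the fusion (-0.96). After quantile normalisation it was past 2-fold (-1.03). Of 21 tested decapping genes none was called at 3 h, and Lsm6 (-1.07) alone was lower at 6 h. That call of Lsm6 was lost with a pseudocount of 5 FPKM (-0.81).

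The list around the RNA exosome, which degrades RNA from its 3′ end, had the lowest median of all lists. Besides exosome genes it holds the cofactor genes Skiv2l, Skiv2l2, Ttc37 and Wdr61. Of the list's 16 genes 14 lay below 0 at 3 h and 14 at 6 h, with medians of -0.44 and -0.42, against 0.003 and -0.03 over all tested genes. The share of all tested genes below 0 was not computed, so the counts of 14 have only these medians to be read against. Exosc4, from 30.1 to 11.5 FPKM (-1.32), and Exosc7, from 68.5 to 31.1 FPKM (-1.12), were lower at 3 h, and none passed at 6 h. At 6 h Exosc4 had 34.2 FPKM under PBS against 38.1 under the fusion (0.15), and the ratio of Exosc7 was -0.83. Among 16 tested genes for kinases, phosphatases and 14-3-3 proteins that act on ZFP36 proteins, Dusp1 alone was called, and the medians were 0.01 and -0.13. Dusp1 encodes the phosphatase that switches off p38, the kinase pathway that holds ZFP36 inactive. It had 10.8 FPKM under PBS against 179 under the fusion at 3 h (3.92), and 7.08 against 37.1 at 6 h (2.24). Dusp1 also stands in the list of cited targets. Mapk3, a kinase gene of the list, was just short of the rule at 6 h, with 39.88 FPKM under PBS against 19.65 under the fusion (-0.985). It was past 2-fold with a pseudocount of 0.1 FPKM (-1.017) and after quantile normalisation (-1.06).

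Of 40 transcripts cited as targets of ZFP36 proteins or Regnase-1, 17 were higher and 1 was lower at 3 h, and 14 were higher and 1 was lower at 6 h. The background of all tested genes was 6.13% higher at 3 h and 7.13% at 6 h. The counts were the same with no filter on FPKM. The 23 that passed the filter had a median of 2.15 at 3 h and 1.57 at 6 h, but the filter admits genes that are high only with the fusion. The list was chosen with earlier results of these data known, so its direction is not independent evidence. Fos, an AP-1 gene, had the largest ratio at both times (6.90 and 4.38). The chemokine gene Cxcl1 (4.72) and the survival gene Ier3 (4.44) followed at 3 h. At 6 h the cyclooxygenase gene Ptgs2 (3.55) and the cytokine gene Il6 (3.37) came next. This order rests on the pseudocount, since Fos had 0.370 and Il6 0.492 FPKM under PBS at 6 h. With a pseudocount of 5 FPKM Ptgs2 (3.38) was above Fos (2.60), and Cxcl1 (2.53) was above Il6 (1.82). With 0.1 FPKM Il6 (4.61) was above Ptgs2 (3.59). The 3 h order also changed with 0.1 FPKM, where Il6 (4.965) was above Cxcl1 (4.757) and Ier3 (4.459). Il6 had 0.4119 FPKM under PBS at 3 h. Cyclin D1, Ccnd1, was the lower gene at both times. Whether the levels of the decay proteins have a part in these ratios was not tested.

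**Figure D4:**
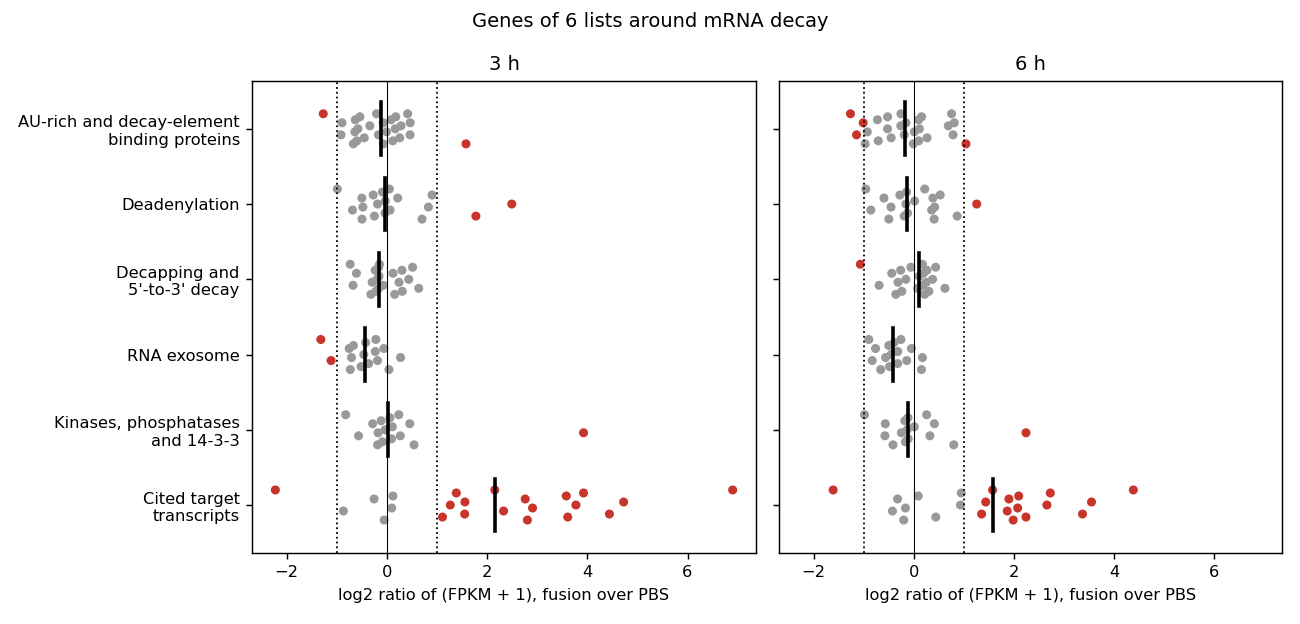
Log2 ratio of (FPKM + 1) of the fusion over PBS (x axis) for the tested genes of 6 lists (y axis) at 3 h and 6 h; each point is a gene, red past 2-fold (dotted lines) and grey otherwise, and the black bar is the list median. The exosome median was -0.44 at 3 h and -0.42 at 6 h, and that of the cited target transcripts 2.15 and 1.57.

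Markers of macrophages, in which ZFP36 is well studied, were also read. The 5 markers summed to 11.2 to 25.8 FPKM in the columns without fusion, and to 80.9 and 121 FPKM with the fusion at 3 h and 6 h. Nearly all of that was Cd14, while Emr1 was listed at 0 in every column and Csf1r and Ptprc reached at most 0.0523 and 0.0256 FPKM. The fifth marker, Cd68, had 1.05 FPKM under PBS against 3.49 under the fusion at 3 h, and 1.38 against 2.75 at 6 h. Emr1, Csf1r and Ptprc were thus at or near 0, while Cd14 and Cd68 were higher in the fusion columns, and their part in the results was not tested.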

How the data were processed

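RNA was sequenced from 24 samples of T11 cells in 8 groups. The authors deposited 1 table of FPKM values, averaged per group. Per the submitters' processing notes the build was mm9 and the tools were Cuffnorm 2.2.1, Cufflinks 2.2.1, STAR 2.1.3 and bcl2fastq 2.17.1.14. Not given in the sources used here are their order and settings, the library scaling and the use of strand.

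Python 3.11.15 with pandas 2.3.3 was used. Log2 ratios of FPKM + 1 were taken over genes whose mean reached 1 FPKM, and 2-fold was the call rule. The rule was run on simulated data in which the planted changes were well past 2-fold. That run cannot speak to calls near 2-fold or to the spread of replicates. Alternatives were pseudocounts of 0.1 and 5 FPKM, a 1.5-fold rule, no minimum or a minimum of 5 FPKM, median-ratio scaling, quantile normalisation and the mean of both PBS columns as reference. All 6 genes were named, with up to 3 called genes of largest ratio per list and time, and the 4 nearest profiles per gene, leaving out small RNA records and predicted genes. The nearest profiles of Elavl1 and Khsrp are not reported here. Ccnd1, Cnot6, Mapk3 and Pabpc4 were named after their values were seen. Pabpc1, Paip2, Skiv2l, Skiv2l2, Ttc37 and Wdr61 were named only to describe their lists. The genes and lists were chosen with earlier results of these data known. Table starts were shifted to count from 1.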

Additional observations from a re-analysis of the deposited data

Results flagged for a closer look

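The fusion over PBS had opposite signs at the 2 times for 3 of the 6 genes, and whether the times differ was not tested. For Zfp36l2 the log2 ratio was -0.253 at 3 h and 1.12 at 6 h, and against the mean of both PBS columns it was above 0 at both times. For Zc3h12a it was 0.581 at 3 h and -0.153 at 6 h. For Elavl1 it was -0.047 at 3 h and 0.038 at 6 h, values as small as the differences between columns without fusion.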

How the results depend on the processing

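Of 540 values for the 6 genes over the comparisons and alternatives, 517 kept their side of the 2-fold rule and moved by less than the spread of the columns without fusion or stayed called. A further 14 moved by more without changing a call, 6 gained a call and 3 lost one. The 540 include values that could not move. The lowest mean of the 6 genes was 10.0 FPKM, so the settings of the minimum leave their ratios and calls as they were. The 1.5-fold rule keeps every ratio and can only add calls. The count of 517 is thus not a measure of robustness. Over the alternatives the fusion ratio of Zfp36 lay between 2.99 and 3.61 at 3 h and between 1.28 and 1.79 at 6 h, and that of Zfp36l1 between 2.32 and 2.88 and between 1.45 and 1.96. Zfp36l2 at 6 h went from 0.58, against the mean of both PBS columns, to 1.32.

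With a pseudocount of 5 FPKM 1 of the 6 genes, Zfp36, was called in the fusion between 6 h and 3 h, 2 binding-protein genes and 0 decapping genes were called at 6 h. With a pseudocount of 0.1 FPKM 2 kinase and phosphatase genes were called at 6 h. After quantile normalisation, and against the mean of both PBS columns, 2 deadenylation genes and 2 kinase and phosphatase genes were called at 6 h. With the 1.5-fold rule 1 of the 6 genes, Zfp36l2, was called in PBS between the times, and Zc3h12a was called at 3 h for the fusion against FPP-1746 (0.84) and Omomyc (0.78), and between the times in the fusion (-0.95). Under that rule 8 binding-protein, 7 deadenylation, 4 decapping, 6 exosome and 2 kinase and phosphatase genes were called at 3 h, and 12, 5, 3, 4 and 3 at 6 h. The share of all tested genes called at 1.5-fold was not computed, so these counts have no background to be read against. The wider rule admits smaller ratios by construction, and the cause of the other changes was not tested.

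No paired analysis was possible because each group is 1 averaged column, and no replicate was left out for the same reason.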

Other observations

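Tested genes were also grouped by the number of TATTTAT heptamers in their 3′ UTR, a grouping chosen after the data were seen. With the fusion at 3 h, 4.67% of 6323 genes without a heptamer were at least 2-fold above PBS, 7.77% of 1698 genes with 1, 11.4% of 551 genes with 2 and 14.6% of 309 genes with 3 or more. At 6 h the shares were 5.74%, 9.72%, 8.35% and 16.2%. The shares of lower genes in the same order were 3.95%, 4.06%, 2.72% and 2.59% at 3 h, and 3.37%, 1.88%, 1.81% and 1.29% at 6 h. Median 3′ UTR length differed between these groups, from 720 to 3254 bases. Among genes with a 3′ UTR of 1000 to 2000 bases, 5.67% of 1428 genes without a heptamer were higher at 3 h. So were 10.6% of 492 genes with 1, 12.3% of 155 genes with 2 and 8 of 50 genes with 3 or more. At 6 h these were 6.79%, 11.8%, 9.68% and 15 of 50, so the shares did not rise at every step. Of these 50 genes none was at least 2-fold lower at either time. The 3′ UTRs are those of 1 annotated transcript per gene in a later build than that of the table, and the form used in T11 cells was not measured. The filter on mean FPKM admits genes that are high only with the fusion, so the shares of higher genes depend in part on that filter. Genes are not replicates, and no test was run on any of these shares.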
